A study of Drosophila melanogaster with 4 samples.

Results

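The mitochondrial ribosomal protein genes of Drosophila melanogaster were taken as all genes of the table whose symbol begins with mRpL or mRpS and that lie off chromosome 4. The rule found 71 of 13990 genes, 45 for the large (L) and 26 for the small (S) subunit. Levels did not enter the rule. Quantification had failed in the 51B homozygote for mRpL13 (15.2 to 16.5 FPKM in the other genotypes), mRpL43 (8.92 to 10.6 FPKM) and mRpS25 (18.8 to 22.6 FPKM), and the other 68 were analysed among 10872 genes. The filter on low values removed 0 of the 71.

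The mitochondrial ribosome translates the few proteins encoded by mitochondrial DNA, which are subunits of the respiratory chain and of ATP synthase. Its ribosomal RNAs come from the mitochondrial genome, whereas its proteins are encoded in the nucleus, made in the cytosol and imported. Many of them descend from proteins of the bacterial ribosome, and others have no bacterial counterpart. In flies, the tissues with the densest mitochondria include the flight muscles, and mutations in tko, the gene of mitochondrial protein S12, cause slow development and seizures after mechanical shock.

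RNA was from adult males aged 0 to 16 hr and grown at 25 °C, of 4 genotypes with 1 value each per gene. The V966M homozygote (V966M/ V966M) and the 51B homozygote (51B / 51B) carry only the named allele of Ago2, which encodes an Argonaute protein guided by small interfering RNAs. Each heterozygote carries that allele over a TM3 balancer, a rearranged chromosome 3 with visible markers, which is TM3,twi-GFP,Sb,Ser for V966M and TM3, Ser, y+ for 51B. Every group thus carries at least 1 mutant Ago2 copy, homozygote and heterozygote differ along chromosome 3 as a whole, and whole flies were sampled. Values are FPKM, fragment counts scaled to transcript length and library size, and the range in brackets is the interval deposited with each value. Per the design text each genotype was sequenced in 2 libraries, but no replicate values are given, so genotypes were compared without a test.

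Summed FPKM over the table was 493829 to 645245, and the deposited interval of the 68 members had a median half-width of 26.7% of the value (V966M heterozygote), 19.2% (V966M homozygote), 18.2% (51B heterozygote) and 32.7% (51B homozygote). Changes are log2 ratios of FPKM + 1, which understate changes of low genes. A gene was called where the change was at least 2-fold and the intervals of both genotypes did not overlap. Because genotypes differed in scale, each comparison is also given rescaled, after removing from each genotype the typical ratio (the median over genes) of its values to the 4-genotype geometric mean. The median change of all genes was then -0.00 in place of -0.25 for V966M, -0.04 in place of 0.07 for 51B, 0.02 in place of 0.26 for the heterozygotes and -0.01 in place of -0.11 for the homozygotes. AGO2 had 150.0, 101, 46.5 and 6.33 FPKM in the V966M heterozygote, V966M homozygote, 51B heterozygote and 51B homozygote, the order of genotypes used for all values below.

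The members were for the most part expressed at moderate levels. Their mean FPKM over genotypes ran from 3.70 to 79.8 with a median of 17.8, against 11.3 for all genes analysed, and 48 of 68 lay between 10 and 40 FPKM. None was listed at 0 in any genotype. The order of levels changed little, with Spearman's rho between genotypes of 0.92 to 0.98 over 68 genes, which share the gene models used for every genotype. After rescaling, the highest genotype was less than 2-fold above the lowest for 64 of 68 members, or 94.1%. Among the 7693 genes in the same range of levels this share was 89.0%.

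**Figure D1:**
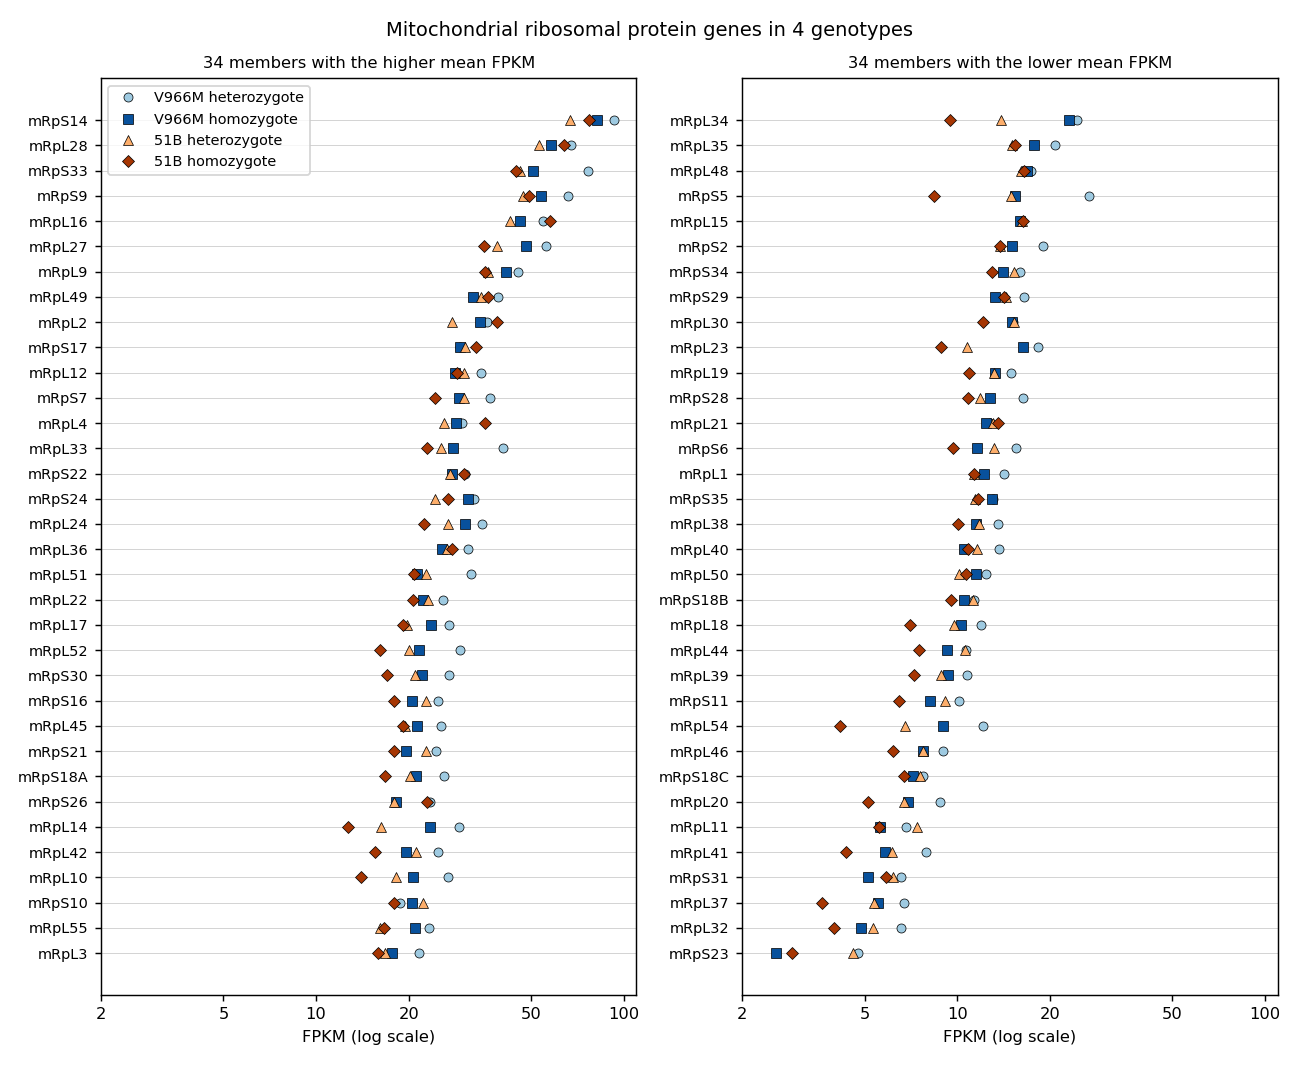
FPKM on a log axis of the 68 analysed members in 4 genotypes, sorted by their mean, with the higher 34 at left and the lower 34 at right. Points are single values without replicate values, and mRpS14 leads with a mean of 79.8 FPKM while mRpS23 is lowest with 3.70 FPKM.

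The highest member was mRpS14, the counterpart of bacterial S14, which lies in the head of the small subunit. It had 93.2, 81.8, 67.2 and 77.0 FPKM, and all 4 intervals overlapped in the range from 71.2 to 77.7 FPKM. The next in order were mRpL28 with 67.5, 58.0, 52.9 and 64.0 FPKM, mRpS33 with 76.8, 50.7, 46.0 and 44.7 FPKM, and mRpS9 with 66.1, 53.8, 46.9 and 49.2 FPKM. Between neighbours in this order the intervals overlapped in every genotype, except those of mRpS14 and mRpL28 in the V966M homozygote (68.9 to 94.8 against 48.9 to 67.0 FPKM). Of these, mRpL28 and mRpS9 encode counterparts of bacterial proteins and mRpS33 does not. The lowest members were mRpS23 (4.75, 2.58, 4.57 and 2.91 FPKM), mRpL32 (6.58, 4.86, 5.31 and 3.98 FPKM), mRpL37 (6.72, 5.53, 5.34 and 3.62 FPKM) and mRpS31 (6.55, 5.11, 6.19 and 5.84 FPKM). In the mature particle most proteins are present once, whereas the mRNA levels of the members spanned 21.6-fold. The stalk protein L12, which is present in several copies in bacterial ribosomes, is encoded by mRpL12, and this gene had 34.3, 28.2, 30.4 and 28.7 FPKM.

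By subunit, the median of the mean FPKM was 17.7 for 43 large-subunit genes and 19.9 for 25 small-subunit genes, ranges that lay largely on top of each other. Genes of proteins with a bacterial counterpart, by the homology known for human mitochondrial ribosomes, had a median of 19.96 FPKM (43 genes, 5.18 to 79.8), and those without one had 14.6 FPKM (25 genes, 3.70 to 54.6). The 3 S18 paralogues differed in level and kept their order in every genotype. The gene mRpS18A, whose human product sits in the large subunit in spite of its name, had 25.97, 21.1, 20.2 and 16.7 FPKM. Its relatives had 11.3, 10.5, 11.3 and 9.51 FPKM (mRpS18B) and 7.76, 7.17, 7.57 and 6.71 FPKM (mRpS18C). The intervals of mRpS18A and mRpS18C did not overlap in any genotype, while those of mRpS18B and mRpS18C overlapped in each.

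In 51B, the members were lower in the homozygote than in the heterozygote as a group, by a small amount. Their median change was -0.15 (quartiles -0.32 to 0.03), where all genes had 0.07, and 21 of 68 members (30.9%) were above 0 against 59.3% of all genes. Rescaled, the median was -0.26 against -0.04, and 8 members (11.8%) were above 0 against 45.4%. The shift did not come from single strong changes. None of the 68 was called, where 1.69% of all genes were called higher and 1.12% lower, and all 68 stayed within 2-fold. For 0 members the homozygote's interval lay above that of the heterozygote and for 1 below, against 7.77% and 4.28% of all genes. After rescaling, again 0 members were called (all genes 1.29% higher, 1.45% lower) and intervals were apart for 0 higher and 1 lower (all genes 4.64% and 6.96%). Neither share of members exceeded the background. The intervals of the 51B homozygote were the widest of the 4 genotypes, and the part of precision in this shift was not tested.

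**Figure D2:**
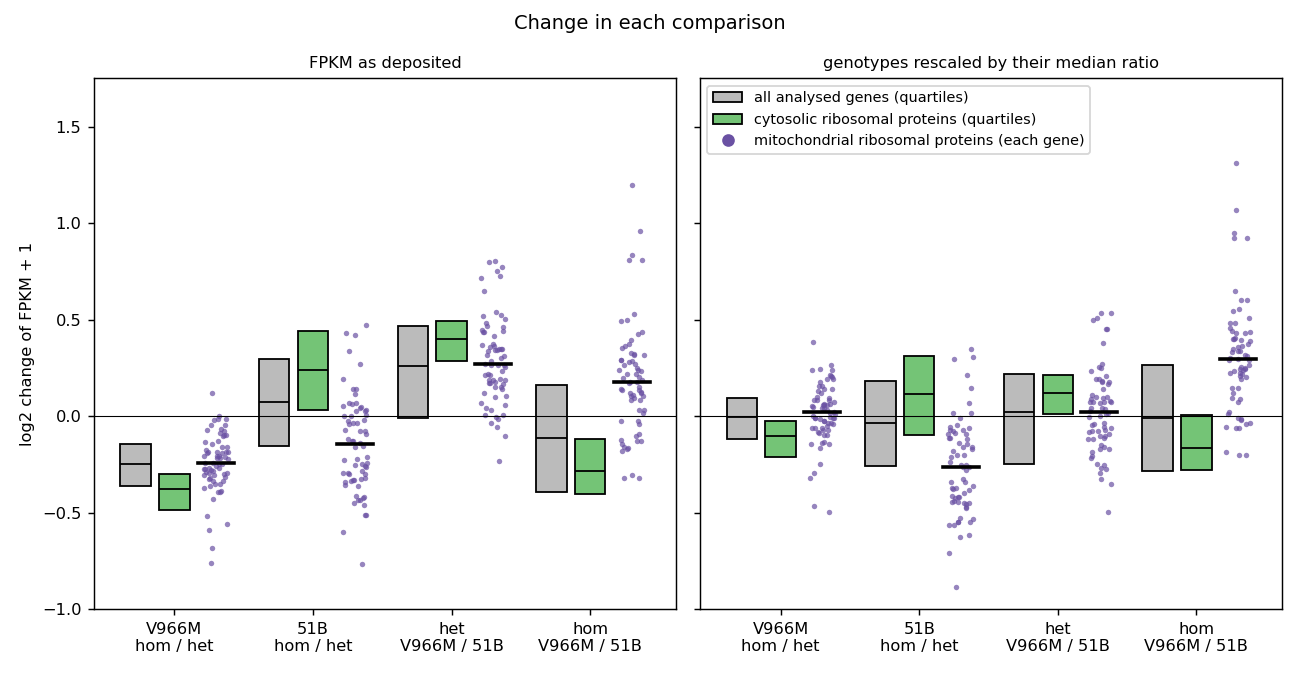
Log2 change in the 4 comparisons, as deposited (left) and rescaled (right). Boxes show the median and quartiles of all analysed genes and of 83 cytosolic ribosomal protein genes, and points are the 68 members with a bar at their median, which in 51B lies at -0.15 as deposited and -0.26 rescaled.

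The member whose intervals separated in 51B was mRpS5, the counterpart of bacterial S5, a protein near the mRNA entry channel of the small subunit. It lies on 3L from 24530335 to 24536634 in dm3, in a locus of its own. The heterozygote had 14.9 FPKM (12.2 to 17.6), and the 51B homozygote was 1.78-fold lower at 8.37 FPKM (5.67 to 11.1). On the log2 scale this was -0.77, or -0.88 rescaled. Next came mRpL54, which has no bacterial counterpart, with 6.78 FPKM (4.99 to 8.56) and 4.14 FPKM (2.35 to 5.94). The small-subunit gene mRpS23 had 4.57 FPKM (3.23 to 5.92) and 2.91 FPKM (1.49 to 4.32), and shares its locus with RpII33. For both, the intervals overlapped.

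The 3 members with the largest change toward higher values in 51B encode counterparts of bacterial proteins of the ribosome's core. Around the peptidyl transferase centre lies L2, and mRpL2 stood at 27.6 FPKM (23.3 to 31.9) in heterozygous and 38.6 FPKM (27.7 to 49.5) in homozygous flies, or 0.47 on the log2 scale. L4 lines the exit tunnel, and mRpL4 had 26.02 FPKM (21.9 to 30.2) and 35.4 FPKM (25.2 to 45.6). L16 contacts the tRNAs, and mRpL16 had 42.7 FPKM (36.2 to 49.2) and 57.5 FPKM (40.7 to 74.4). In these 3 genes, as in mRpL28 and mRpS26, the homozygote was the higher genotype also after rescaling, and every pair of intervals overlapped. The other higher members after rescaling were mRpS14, mRpS22 and mRpS24, at 0.07, 0.02 and 0.02.

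The change in 51B was lower among members of low level. The 14 members with a mean of at most 10 FPKM had a median of -0.39 and 0 of them lay above 0, whereas the 2898 genes of all kinds in the same range had 0.04 with 1588 above 0. For 24 members between 10 and 20 FPKM the median was -0.11 (all genes 0.11), for 24 between 20 and 40 FPKM it was -0.10 (all genes 0.12), and for the 6 above 40 FPKM it was 0.13 (all genes 0.18). Across the 68 members Spearman's rho between mean level and change was 0.54 in 51B and 0.07 in V966M, and over all genes it was 0.21 in 51B. The genes of such a correlation share libraries, and the mean level contains the values compared. Coding length, taken by symbol from a later annotation, had a rho of 0.16 with the change in 51B.

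**Figure D3:**
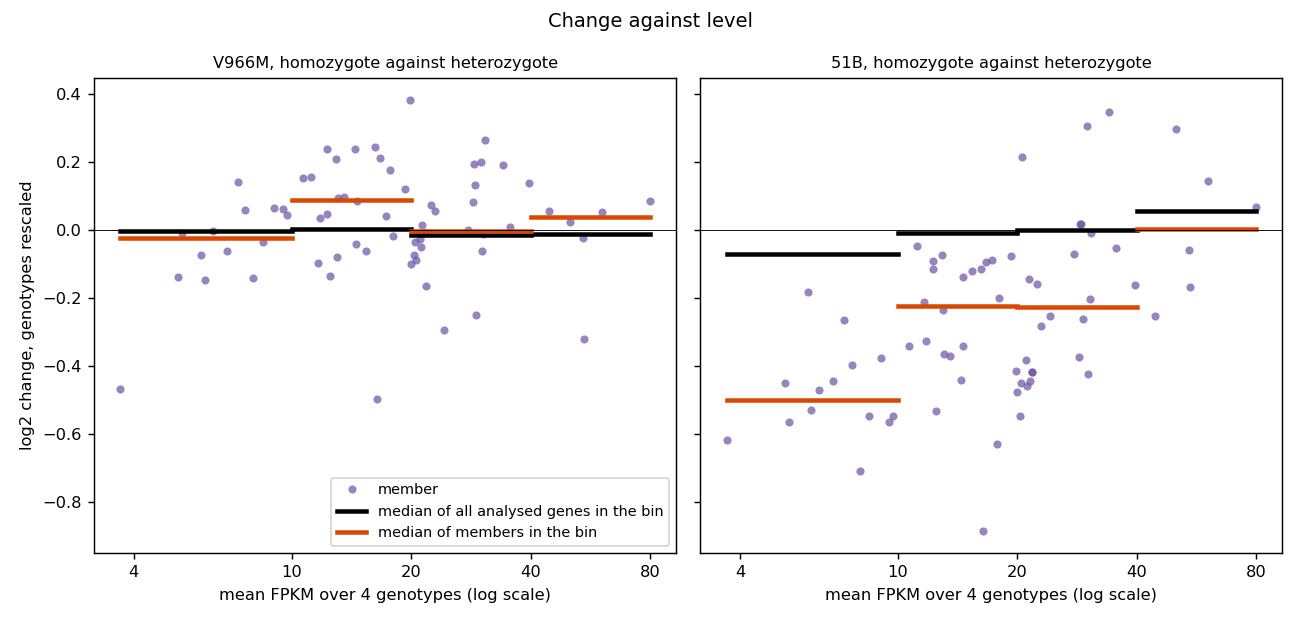
Rescaled log2 change, homozygote against heterozygote, against mean FPKM on a log axis, for V966M (left) and 51B (right). Points are the 68 members and lines are medians within 4 ranges of level for members and for all genes; in 51B the 14 members of at most 10 FPKM have a median of -0.50 against -0.07 for all genes.

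In V966M, the members followed the shift of all genes. Their median change was -0.24 where all genes had -0.25, and after rescaling it was 0.02 against -0.00, with 37 of 68 members above 0 (54.4%) against 48.9% of all genes. No member was called, where 0.0644% of all genes were called higher and 0.350% lower (0.120% and 0.0736% rescaled). For 0 members the homozygote's interval lay above that of the heterozygote, and for 1 below, against 0.147% and 8.34% of all genes. After rescaling 0 members had separate intervals, against 0.717% of all genes higher and 1.21% lower.

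The member with separate intervals in V966M as deposited was again mRpS5. Its heterozygote had 26.7 FPKM (20.1 to 33.4), and its homozygote was 1.74-fold lower at 15.4 FPKM (12.6 to 18.2). Its log2 change was -0.76 as deposited and -0.50 rescaled, where the intervals overlapped. Its level was therefore lower in the homozygote of both alleles, and the V966M homozygote was close to the 51B heterozygote. The next largest changes were those of mRpS23 (-0.68, from 4.75 to 2.58 FPKM) and mRpS33 (-0.59, from 76.8 to 50.7 FPKM), both with overlapping intervals. The single member with a change above 0 as deposited was mRpS10, the counterpart of a head protein of the bacterial small subunit, with 18.8 FPKM (13.7 to 23.9) and 20.6 FPKM (16.6 to 24.5). Next in order, mRpS17 had 29.4 and 29.4 FPKM and mRpL15 had 16.2 and 16.0 FPKM. As deposited, the level of mRpL15 was even over all genotypes, with 16.3 FPKM in both 51B genotypes. Rescaled, mRpL15 had 14.3, 17.1, 17.4 and 16.0 FPKM. The rescaled changes in V966M were 0.27 for mRpS17 and 0.24 for mRpL15, with overlapping intervals.

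Set side by side after rescaling, 30 members were below 0 in both alleles and 7 above 0 in both, while 30 were above 0 in V966M and below 0 in 51B and 1 the other way. The alleles share no library, so these are separate measurements of the same genes. Pearson's r between the changes in both alleles was 0.39 and Spearman's rho 0.39 across 68 genes, which are not independent replicates. The lowest change in both alleles was that of mRpS5, as deposited and rescaled.

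**Figure D4:**
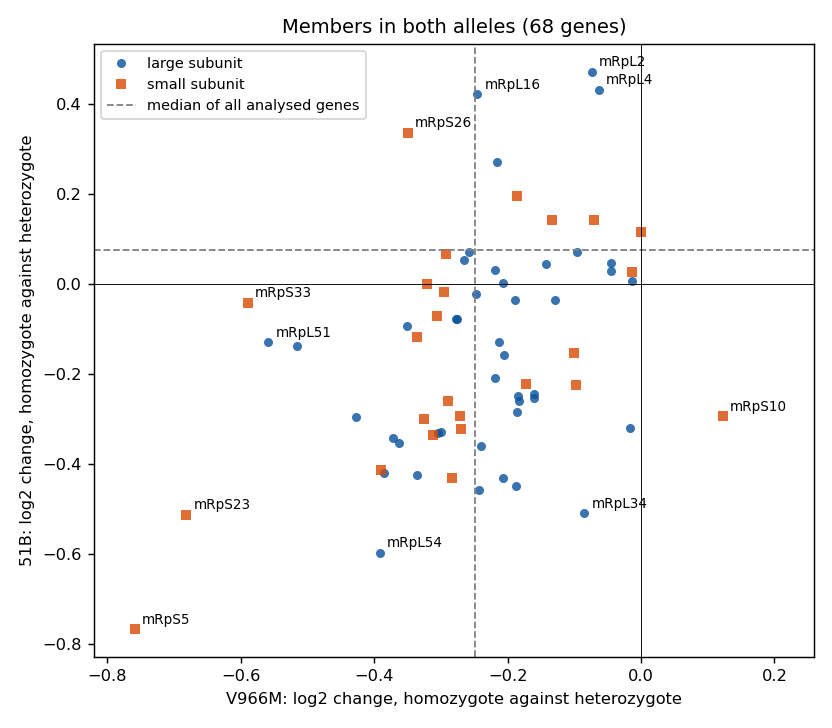
Log2 change of each member as deposited, homozygote against heterozygote, in V966M (x axis) and in 51B (y axis), with dashed lines at the medians of all analysed genes. The 68 points centre on the all-gene median in V966M and lie mostly below it in 51B, and mRpS5 is lowest in both at -0.76 and -0.77.

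Comparisons between the stocks use the same 4 values per gene as those above and are not independent of them. Between heterozygotes, the median of the members was 0.27, V966M higher, where all genes had 0.26, and rescaled it was 0.02 against 0.02. No member was called, where 2.73% of all genes were called higher in V966M and 0.304% lower (1.23% and 0.717% rescaled). As deposited, 4 members had an interval in V966M above that in 51B (mRpS5, mRpL14, mRpL23 and mRpS33) and 0 below, against 19.0% and 2.06% of all genes, and rescaled 0 had separate intervals, against 6.94% and 9.04%. The members at the low end were mRpS10 (-0.23), mRpL11 (-0.10) and mRpS17 (-0.06), with overlapping intervals. For 34 of 68 members both V966M values as deposited were above both 51B values, which held for 29.4% of all genes.

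Between homozygotes, the members were higher in V966M, with a median of 0.18 where all genes had -0.11. Above 0 were 52 of 68 members (76.5%) against 39.1% of all genes, and rescaled the median was 0.30 against -0.01. The 51B homozygote was the lowest of the 4 genotypes after rescaling for 52 of 68 members, or 76.5%, and for 35.1% of all genes. One member, mRpL34, was called higher in V966M, where 2.75% of all genes were called higher and 2.78% lower. Rescaled, mRpL54 was called as well, against 3.33% of all genes higher and 1.82% lower. Separate intervals with V966M higher were found for 5 members (mRpS5, mRpL14, mRpL23, mRpL34 and mRpL54) against 7.47% of all genes, and with V966M lower for 0 against 10.8%, and rescaled these counts were 5 (all genes 10.1%) and 0 (all genes 6.80%).

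The called gene mRpL34 encodes the counterpart of L34, a short protein of the large subunit. It had 24.5 FPKM (16.7 to 32.3), 23.0 FPKM (17.6 to 28.5), 13.9 FPKM (10.05 to 17.8) and 9.47 FPKM (5.29 to 13.7). Both V966M values lay above both 51B values, and the intervals of the homozygotes were apart with a log2 change of 1.20, or 1.31 rescaled. With a pseudocount of 5 FPKM the change was 0.95 and the gene was not called. The gene lies on 2R from 11986498 to 11990108, in a locus it shares with CG8414, so its value depends on how fragments were divided. That neighbour had 2.31, 1.83, 1.33 and 1.31 FPKM, with overlapping intervals between the homozygotes.

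The counterpart of L14, a protein at the interface of the subunits, is encoded by mRpL14 on X from 2238030 to 2238670, in a locus of its own. It had 29.1 FPKM (21.5 to 36.7), 23.5 FPKM (19.1 to 27.9), 16.3 FPKM (13.1 to 19.4) and 12.7 FPKM (8.31 to 17.2). As deposited, the V966M stock was the higher at matched zygosity, 1.79-fold in heterozygotes and 1.84-fold in homozygotes, with log2 changes of 0.80 and 0.83. Rescaled, these changes were 0.53, with overlapping intervals, and 0.95, with separate intervals. L23 sits at the mouth of the exit tunnel, and mRpL23, on 3L from 2372199 to 2373678, had 18.3 FPKM (13.2 to 23.5), 16.3 FPKM (12.8 to 19.8), 10.8 FPKM (8.52 to 13.0) and 8.87 FPKM (5.39 to 12.4). Its locus also holds CG8993, which had 116, 106, 94.4 and 120 FPKM, with overlapping intervals between the stocks. Like mRpL14, mRpL23 was higher in V966M at both zygosities, with log2 changes of 0.71 and 0.81 as deposited. Rescaled they were 0.45 between heterozygotes, with overlapping intervals, and 0.92 between homozygotes, with separate intervals.

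The gene mRpL54, on 2R from 16948284 to 16949092, had 12.1 FPKM (8.23 to 16.0), 8.99 FPKM (6.82 to 11.2), 6.78 FPKM (4.99 to 8.56) and 4.14 FPKM (2.35 to 5.94), and its homozygotes differed by 2.17-fold with a log2 change of 0.96. The intervals of its heterozygotes overlapped. For mRpS33, on 3R, the V966M heterozygote was highest with 76.8 FPKM (57.7 to 96.0), and the other 3 genotypes lay between 44.7 and 50.7 FPKM. As deposited its interval was separate from that of the 51B heterozygote and overlapped the others, and rescaled it overlapped all 3. Members that were higher in the 51B homozygote than in the V966M homozygote, with overlapping intervals, were led by mRpS26, mRpL16 and mRpL4, at -0.32, -0.32 and -0.30.

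**Figure D5:**
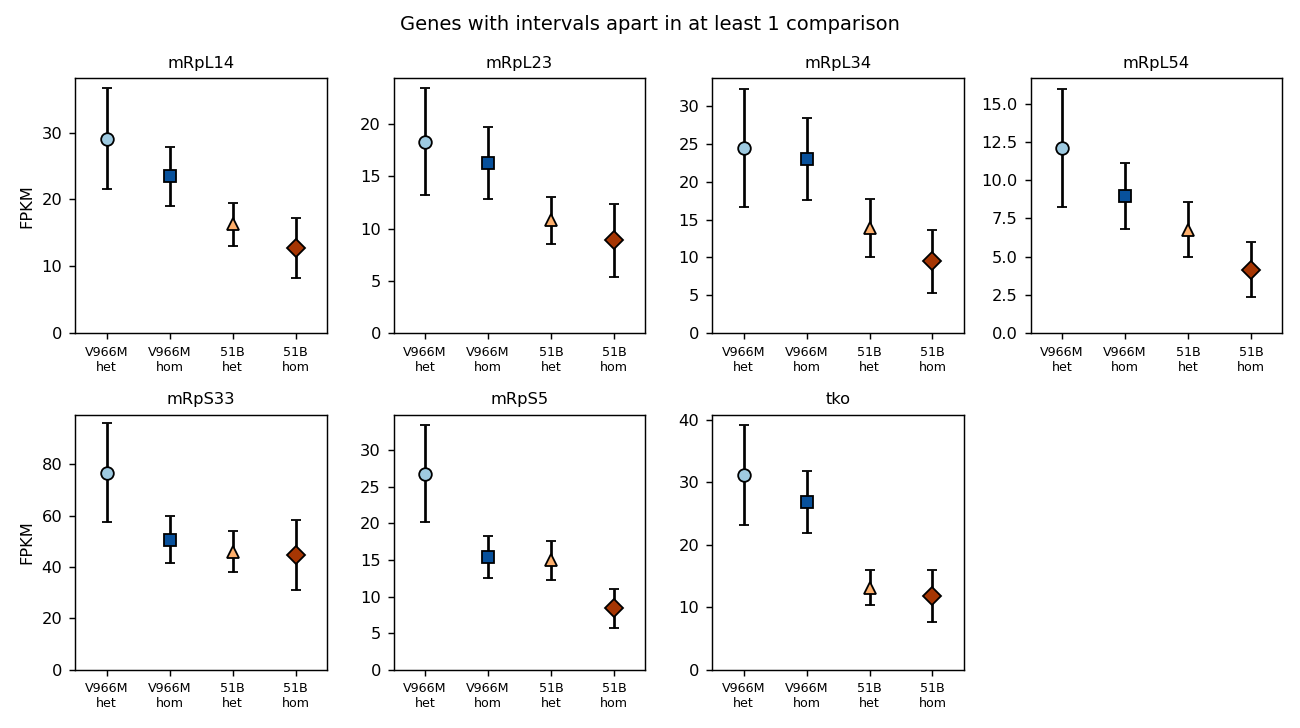
FPKM with the deposited interval in 4 genotypes (het, heterozygote; hom, homozygote) for the 6 members whose intervals were apart in at least 1 comparison as deposited, and for tko. Each point is 1 value without replicate values. All 7 genes have both V966M values above both 51B values as deposited, a pattern favoured by their choice, since each had separate intervals between the stocks.

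Of 3 mitochondrial ribosomal protein genes that carry other names, tko differed between the stocks. This gene, on X, had 31.1 FPKM (23.1 to 39.1), 26.8 FPKM (21.9 to 31.8), 13.2 FPKM (10.4 to 15.9) and 11.8 FPKM (7.61 to 16.0). It was called higher in V966M between heterozygotes (log2 change 1.18) and between homozygotes (1.12), as were 2.73% and 2.75% of all genes. After rescaling the changes were 0.92 and 1.23, of which the first missed the 2-fold threshold with intervals still apart. Rescaled, 1.23% and 3.33% of all genes were called higher in V966M in these comparisons. Within the alleles tko had -0.21 and -0.14, with overlapping intervals. The S15 gene bonsai had 14.9, 11.7, 12.1 and 9.26 FPKM, and Rlc1, which the reference names mRpL47, had 20.4, 15.8, 15.5 and 16.6 FPKM. Neither was called in any comparison.

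By subunit, ancestry and locus the change in 51B was alike. The medians were -0.14 for the large and -0.15 for the small subunit, -0.15 with and -0.13 without a bacterial counterpart, and -0.14 for the 36 genes that share a locus and -0.15 for the 32 that do not. On chromosome 3, which carries Ago2 and the balancer, 37 members (54.4%, against 44.0% of all genes) had a median of -0.08, and the 31 members elsewhere had -0.21. All genes had 0.07 on chromosome 3 and 0.08 elsewhere, so the members lay below all genes in either part. By arm the medians of members in 51B were -0.13 on 2L, -0.37 on 2R, -0.07 on 3L, -0.12 on 3R and -0.15 on X, each from 10 to 20 genes. In V966M, large-subunit genes had -0.22 and small-subunit genes -0.29.

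Cytosolic ribosomal protein genes differed in the opposite direction in 51B. The 83 analysed had a median of 0.24 (all genes 0.07) with 63 above 0 (all genes 59.3%), and 0.12 rescaled. None was called, where 1.69% of all genes were called higher and 1.12% lower. Their median level was 623 to 818 FPKM across genotypes, and the part of level in this difference was not tested. In V966M they had -0.38 (all genes -0.25), and -0.10 rescaled (all genes -0.00). Between homozygotes their median was -0.28, where that of the mitochondrial members was 0.18, and the signs of both stayed after rescaling.

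Other genes of mitochondrial gene expression showed no call within either allele, where calls were rare among all genes. Of these, 1.69% were called higher and 1.12% lower in 51B, and 0.0644% and 0.350% in V966M. The median change of all genes was 0.07 in 51B, with 59.3% above 0, and -0.25 in V966M. Of 7 analysed translation factors, 4 were above 0 in 51B with a median of 0.06 (-0.05 rescaled). The elongation factor gene mEFTs (CG6412 in the table) had 112, 93.4, 115.2 and 150.2 FPKM, and the release factor gene mRF1 (CG5705) had 5.37, 5.10, 4.55 and 6.52 FPKM. In V966M the changes next to that of mEFTs (-0.26) were that of mEFG1 (CG4567), another elongation factor gene, at -0.23, and the list's median of -0.20. The list of mitochondrial aminoacyl-tRNA synthetases, most of which charge tRNAs, had 15 analysed genes. Of these, 4 were above 0 in 51B with a median of -0.07 (-0.16 rescaled), and in V966M the median was -0.20. The leucine enzyme gene (Aats-leu) had 6.06, 4.33, 4.23 and 2.65 FPKM, with changes of -0.40 in V966M and -0.52 in 51B. After it came the proline enzyme gene (Aats-pro) at -0.34 in V966M and the methionine enzyme gene (Aats-met) at 0.33 in 51B.

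Among 12 genes of mitochondrial transcription and RNA handling, 2 were above 0 in 51B with a median of -0.16 (-0.27 rescaled), and the median in V966M was -0.23. The termination factor genes mTTF (5.84, 4.27, 4.30 and 3.18 FPKM) and mTerf3 (2.85, 2.32, 2.69 and 1.95 FPKM) had changes of -0.34 and -0.32 in 51B. SLIRP1 (CG33714), which shares its locus, was the exception in V966M. Its heterozygote had 24.5 FPKM (18.2 to 30.8) and its homozygote 40.4 FPKM (33.8 to 47.1), with intervals apart and a log2 change of 0.70, short of the threshold. The V966M heterozygote was also below the 51B heterozygote, at 43.4 FPKM (36.7 to 50.1). This difference was called after rescaling, where 0.717% of all genes were called lower.

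Regulators of nuclear genes for mitochondria were not called either. Of 5 genes, 4 were above 0 in 51B with a median of 0.21 (3 and 0.10 rescaled), and the median in V966M was -0.28 (-0.04 rescaled). In V966M the intervals of ewg were apart as deposited, with the homozygote lower (-0.28), and overlapped after rescaling. The gene of the PGC-1 relative Spargel had 4.35, 2.89, 2.87 and 2.22 FPKM, with overlapping intervals within both alleles. The gene dm, which encodes Myc, had 15.3, 10.4, 9.95 and 13.6 FPKM. Its change was -0.52 in V966M and 0.42 in 51B, and -0.26 and 0.30 rescaled. Ets97D, an ETS factor gene, had 4.06, 3.27, 3.87 and 5.01 FPKM.

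Markers of tissues moved alongside the members in 51B, and in whole flies fewer cells of a type and less RNA per cell cannot be told apart. The 3 analysed muscle markers (TpnC4, Tm2 and fln) summed to 2393, 2065, 1855 and 1582 FPKM and 0 of 3 were above 0 in 51B, while Mhc was listed at 0 in all 4 genotypes and Act88F in the 51B homozygote, both with a status for too many fragments. The sixth muscle marker, up, with failed status in the 51B heterozygote, went the other way with a log2 change of 0.23 in 51B (0.10 rescaled). The 4 gut markers summed to 1738, 1244, 612 and 542 FPKM, and 2 were called lower in 51B (Jon25Bi and Jon99Ci, all genes 1.12%). The others, which led the sum, had 0.10 (alphaTry, -0.02 rescaled) and -0.14 (betaTry) in 51B, with overlapping intervals. The 3 analysed accessory gland markers summed to 691, 551, 532 and 339 FPKM. In the other direction, 3 fat body markers summed to 231, 218, 218 and 543 FPKM with 2 called higher (all genes 1.69%). The 2 analysed neuronal markers summed to 117, 112, 91.3 and 144 FPKM. Male germline markers (5 genes) summed to 1419, 1142, 1846 and 1940 FPKM, a sum led by Mst87F, but only 2 of 5 were above 0 in 51B (1 rescaled) and their median change was -0.08 (-0.20 rescaled). Among them dj had -0.50 and ocn -0.46. Of the female markers, Yp3 was at 6.34 to 8.89 FPKM and the other 5 had a mean below 1 FPKM. The part of tissue makeup in the shift of the members was not tested.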

How the data were processed

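The authors deposited 1 table that gives FPKM, 2 bounds and a status per gene for every genotype, per the file headers. The submitters' processing notes name TopHat, Cufflinks and dm3. The sources used here do not give versions, annotation, strand setting or interval level. Per the design text each genotype was sequenced in 2 libraries, but 1 value is deposited, so n = 1. Depth is unknown, and intervals other than the deposited ones were not made.

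Analysis kept genes whose status was OK in every genotype and whose mean reached 1 FPKM, with a pseudocount of 1 FPKM. Calls need a 2-fold change and separate intervals. Starts were converted to count from 1: of 6668 genes with their own locus, 1180 have the length in the reference if the deposited start counts from 0 and 109 if from 1. Ensembl release 115, of a later build, was used for coding lengths, and a RefSeq gene list for names and reference gene lengths. The calling procedure was tested on simulated data. Python 3.11.15 and pandas 2.3.3 were used.

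The members and lists were chosen with earlier results of these data known. Named members are those called in any comparison, the 3 highest and 3 lowest changes of every comparison, the 4 highest and 4 lowest by level, the S18 paralogues and those with failed status. Of other lists, called genes and the 2 largest changes per allele are named. mRpL12, mRpL23, mRpS22, mRpS24, Rlc1, ewg, alphaTry and betaTry were added after their values were seen, as was the count of members with both V966M values above both 51B values. Sequences, promoter motifs and genes of the mitochondrial genome were not analysed here.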

Additional observations from a re-analysis of the deposited data

How the results depend on the processing

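No paired analysis was possible because each genotype has 1 value. The medians, their distance from all genes and the counts of members were recomputed with each alternative named here, with no filter or a minimum mean of 5 FPKM, whatever the status and, an addition made after the data were seen, beside genes of the members' level range, and 204 of 224 values stayed within 0.1 (log2) or, for counts, within 1.5 times. Rescaling moved the median of members to 0.0203 in V966M, -0.26 in 51B, 0.0203 between heterozygotes and 0.30 between homozygotes. It also took the members with separate intervals to 0 in V966M (lower) and to 0 between heterozygotes (higher), and the members called higher between homozygotes to 2. That last count was 2 with a pseudocount of 0.1 FPKM, 0 with 5 FPKM and 0 without genes that share a locus. Without those genes, 2 members had higher intervals between heterozygotes and 3 between homozygotes. Without chromosome 3, separate intervals numbered 0 in V966M (lower), 0 in 51B (lower), 1 between heterozygotes and 3 between homozygotes. These counts come from fewer genes. Leaving out shared loci removes mRpL34, and leaving out chromosome 3 removes mRpS5, so neither could be counted there. With a 1.5-fold threshold, 1 member was called lower in V966M, 1 lower in 51B, 4 higher between heterozygotes and 5 higher between homozygotes. These were the members with separate intervals as deposited, and the share of all genes called at 1.5-fold is not given here. As deposited, with no fold threshold and no genes left out, separate intervals in these directions held for 8.34%, 4.28%, 19.0% and 7.47% of all genes. For the other pseudocounts, and without shared loci or chromosome 3, the shares of all genes are not given here. Those counts of members therefore have no background beside them. The distance of the members' median from that of all genes in 51B was -0.22 as deposited and -0.23 rescaled. Of values for single named members, under rescaling and both pseudocounts, 115 moved by more than 0.1, 158 did not, 2 calls were gained and 1 was lost. Of their 92 changes, 19 differed in sign after rescaling and 0 with either pseudocount. The width of the deposited interval limits what could separate, most of all in the 51B homozygote.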
